A study of Mus musculus with 23 samples.

Results

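The interferon-stimulated genes examined here are 39 genes chosen by name from the 18512 gene symbols in the files, and all 39 were present in every file. They are 3 transcription factors of the IRF family (Irf1, Irf7 and Irf9) with Stat2, and 35 genes that interferons switch on, taken as a fixed list of symbols and not from their values in these mice. The list was drawn up with earlier results of the same data known. RNA was measured by RNA-seq in the head of the pancreas of 23 C57BL/6 mice of both sexes, aged 6 to 8 weeks and weighing 20 to 25 g. The groups were baseline mice without injury (4 females and 4 males), mice at day 7 after injury (4 females and 4 males) and mice at day 14 after injury (3 females and 4 males). Injury had been induced with caerulein, an analog of cholecystokinin that overstimulates the enzyme-secreting acinar cells and causes acute pancreatitis. It was injected at 50 µg/kg, 8 times a day on 2 days, and the labels describe no injected control group, so baseline mice differ from the others in the injections as well as in the injury. The comparison asks how these genes stood in a pancreas that was recovering from injury.

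Interferons are secreted proteins that warn cells of infection or tissue damage. Type I and type III interferons act through the kinases Jak1 and Tyk2 on a complex that contains Stat2 and Irf9 and binds a promoter element known as the interferon-stimulated response element (ISRE). Interferon gamma acts through Jak1 and Jak2 on genes with a promoter element known as the gamma-activated site (GAS), and leads to production of Irf1. The products of the induced genes block entry, translation or assembly of viruses, sense foreign nucleic acid or attack the vacuoles of intracellular microbes. Many of them are also transcribed at a low level in uninfected tissue, and immune cells as well as epithelial cells are known to express them.

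RefSeq promoter windows on GRCm38.p6, from 250 bases before to 50 bases after the start of a transcript, were found for 29 of the 39 genes. The ISRE core, GAAA followed after any 2 bases by GAAA, or on the other strand TTTC followed likewise by TTTC, was in at least 1 window of 20 of these 29 genes (69.0%), while 3.99% of all 27025 genes in the table had it. The following stretches of 30 bases show it for 7 genes that were called higher at day 7 (the call is defined below), for the ubiquitin-like Isg15, and for genes of the GTPase and HIN-200 families that were not called. Capitals mark the ISRE letters, joined where 2 or 3 matches lie together, and each stretch is read 5′ to 3′ on the strand of its gene.
Ifit1 (chr19:34640785-34640814, plus strand): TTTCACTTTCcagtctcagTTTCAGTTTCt
Oas1a (chr5:120907523-120907552, minus strand): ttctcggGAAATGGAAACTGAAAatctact
Ddx58 (chr4:40239804-40239833, minus strand): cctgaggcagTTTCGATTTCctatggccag
Bst2 (chr8:71537580-71537609, minus strand): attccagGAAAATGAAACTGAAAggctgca
Ifitm3 (chr7:141010714-141010743, minus strand): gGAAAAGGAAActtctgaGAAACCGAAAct
Rsad2 (chr12:26456553-26456582, minus strand): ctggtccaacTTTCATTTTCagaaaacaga
Ifi205 (chr1:174031870-174031899, minus strand): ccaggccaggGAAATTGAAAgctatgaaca
Isg15 (chr4:156200871-156200900, minus strand): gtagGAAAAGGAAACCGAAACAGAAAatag
Gbp2 (chr3:142620594-142620623, plus strand): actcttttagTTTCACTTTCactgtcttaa
Irgm1 (chr11:48871428-48871457, minus strand): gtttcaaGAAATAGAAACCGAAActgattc
Igtp (chr11:58199512-58199541, plus strand): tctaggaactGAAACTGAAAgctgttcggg
Irgm2 (chr11:58214903-58214932, plus strand): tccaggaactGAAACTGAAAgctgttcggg
Ifi203 (chr1:173942508-173942537, minus strand): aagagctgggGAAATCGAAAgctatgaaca
The stretches of Igtp and Irgm2, neighboring GTPase genes, had the same base at 29 of 30 positions. In Bst2 the first match began 130 bases before the RefSeq start and in Oas1a 20 bases before it, while both matches of Ifitm3 lay after it. The shorter GAS core, TTCNNNGAA, reads the same on both strands, and was in 10 of the 29 genes (34.5%) against 9.55% of all genes. Of the genes called higher at day 7 with a window, 7 of 9 had the ISRE core, and of those tested and not called 12 of 19 had it. A match describes letters in a window and not a measured binding site.

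The files held between 7059890 and 9567446 counts per mouse. For a normalized count, each count was divided by the TMM-scaled library size of its mouse and brought back to the average library, which makes mice comparable. Counts of the 23 mice were tested together in edgeR, adjusting for sex, and a gene is called when its Benjamini-Hochberg adjusted p is at most 0.05 and its fold change at least 1.5, which are the thresholds of the study. Of 12195 genes with enough counts to test, 37 were among the 39. Isg15 and Mx2 were too low to be tested. Acinar transcripts matched the tissue label: summed normalized counts of 8 acinar markers lay between 2391260 and 3573864 at baseline, between 1371294 and 2117960 at day 7 and between 2317296 and 2658923 at day 14.

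At baseline most of these genes were weakly expressed. Per kilobase of merged exons, Ifi27 had the highest normalized count at baseline, at 321 ± 51.1 (SD, n = 8), followed by Ifitm3 at 207 ± 50.1 and Bst2 at 81.6 ± 20.4. These 3 genes stood apart from each other by more than their SDs, and together they headed the list also at day 7, where Ifi27 was at 589 ± 62.1 per kilobase. The next was Irf1 at 20.6 ± 10.3 per kilobase, and from there down to Mx2, the lowest at 1.34 ± 0.735, each gene differed from the next by less than its own SD. The genes occupy 27 places in the genome when neighbors within 1000000 bases are joined. The larger clusters are Gbp5, Gbp7, Gbp3 and Gbp2 on chromosome 3 (142493978 to 142638008, GRCm38), Ifit2, Ifit3 and Ifit1 on chromosome 19 (34550694 to 34650009), and Ifi204, Ifi203 and Ifi205 on chromosome 1 (173747293 to 174031810).

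All 37 genes tested had a positive log2 fold change at day 7 against baseline. The values ran from 0.14 for Stat2 to 1.31 for Ifi204, with a median of 0.76, while 53.7% of all genes tested were positive and their median was 0.02. A total of 13 genes were called higher, which is 13 of 37 where the share over all genes tested was 3.82%, and 0 were called lower, where the share over all genes was 1.31%. The 13 genes were Ifit1, Ifit2, Oas1a, Usp18, Ddx58, Bst2, Ifitm3, Rsad2, Ifi204, Ifi205, Ifi27, Ifi35 and Rtp4. At day 14, 25 genes were positive and 12 negative, where 51.6% of all genes were positive, the median was 0.12, and 0 genes were called in either direction, where the shares over all genes were 0.697% higher and 0.0902% lower. From day 7 to day 14 all 37 log2 fold changes were negative, where 46.3% of all genes were positive, with a median of -0.60, and 1 gene, Ifi27, was called lower, where the share over all genes was 0.172%. By the adjusted p alone, without the fold threshold, 14 genes were higher at day 7 and 2 lower from day 7 to day 14, where the shares over all genes were 8.86% and 0.279%. These comparisons share mice, so their values are given side by side and not as independent evidence of one another.

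**Figure D1:**
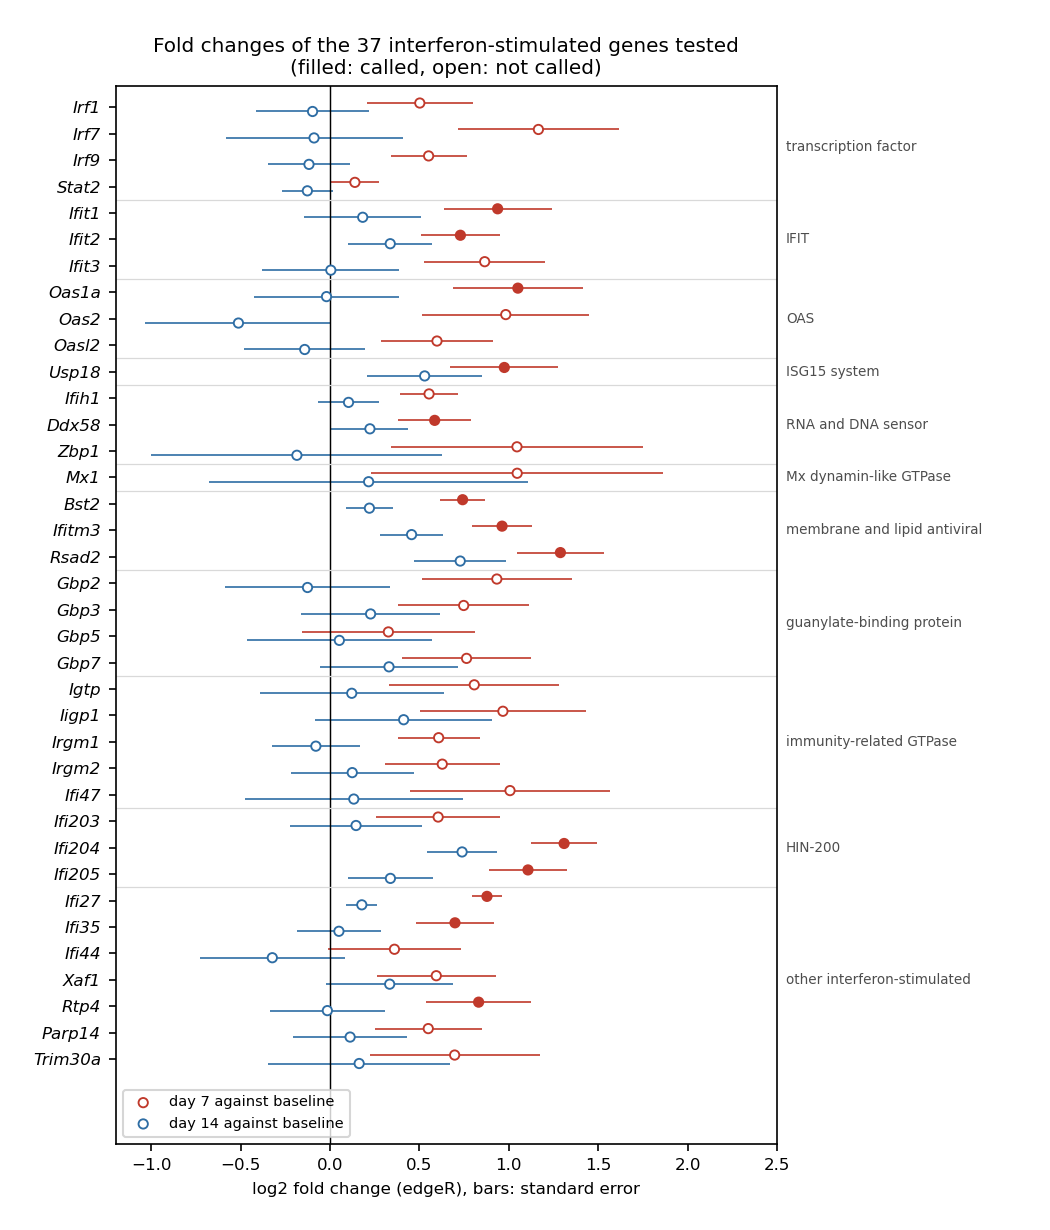
Log2 fold changes of the 37 genes tested, at day 7 (red) and day 14 (blue) against baseline, with standard errors of the edgeR fit as bars and genes in rows by role. Filled points are called genes. All day 7 points lie to the right of 0, and 13 of them and none of the day 14 points are filled.

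Whether the number of called genes rests on single mice was examined by leaving out each in turn. Without day 7 mouse 10 or day 7 mouse 15, 6 of the genes were called higher at day 7, where the shares over all genes were 3.44% and 3.08%, and without baseline mouse 8, 7 were called, where the share was 3.07%. Bst2, Ifitm3, Rsad2, Ifi204, Ifi205 and Ifi27 were called in all 23 of these fits. At day 14, 1 gene, Ifi204, was called without baseline mouse 4, day 7 mouse 10, 12, 14 or 16 or day 14 mouse 18, and 2 genes, Ifi204 and Rsad2, without day 7 mouse 15, where the shares over all genes were 0.642% to 0.769%. From day 7 to day 14 2 genes were called lower without mouse 4 or mouse 13 (Ifi27 and Ifi205) or mouse 17 (Ifi27 and Bst2), and 3 were called without mouse 9. With all mice the share of all genes called lower was 0.172%. Shares called lower in the fits with a mouse left out are not given, so these counts cannot be set against them. With the mapping rate of each library added as a covariate, 2 of the genes, Ifi204 (log2 fold change 1.45, adjusted p = 0.0223) and Ifi27 (0.96, adjusted p = 0.000801), were called at day 7, where 65 of all genes (0.533%) were called higher. In that fit 21 of the 37 values were positive and their median was 0.01. In the study's list of libraries, every day 7 mouse had a higher mapping rate than every baseline mouse except mouse 5. Mapping rate and time point therefore could not be told apart well in this fit. Scaling by total counts instead of TMM moved the median of all genes at day 7 by 0.45, and 33 of the 37 genes were then called, where the share over all genes was 30.1%. DESeq2 called 13 genes at day 7, where the share over all genes was 2.88%, and 11 of them were shared with edgeR, while Ddx58 and Rtp4 were not called and Irf7 and Irgm1 were. The median of the 37 genes was 1.23 under total count scaling, and all 37 were positive under every scaling tried.

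The first group of effectors hinders viruses at membranes and in lipid metabolism, and all 3 of its genes were called at day 7. Bst2 (tetherin) holds budding viruses at the cell surface. Its normalized counts were 51.1 to 110.1 at baseline (median 71.5), 95.4 to 143 at day 7 (median 127) and 60.4 to 118 at day 14 (median 84.4). The log2 fold change at day 7 was 0.74 (SE 0.12, adjusted p = 0.000147), and 7 of 8 day 7 mice were above every baseline mouse. By day 14 Bst2 had fallen by 0.52 from day 7 (SE 0.12, adjusted p = 0.0269), a change that is past the p threshold and under the fold threshold.

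Ifitm3 restricts the fusion of viruses with endosomes. It ranged from 116 to 220.3 at baseline (median 129), from 203 to 415 at day 7 (median 269) and from 156 to 259 at day 14 (median 181). Day 7 and baseline overlapped only through baseline mouse 4, whose count of 220.3 stood above the next baseline value of 148, while day 7 and day 14 overlapped in several mice. The log2 fold change was 0.96 at day 7 (SE 0.17, adjusted p = 0.000417) and 0.46 at day 14 (SE 0.18, adjusted p = 0.233).

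Rsad2 (viperin) makes a chain-terminating nucleotide and its counts after injury lay above those at baseline in every mouse. Its normalized counts were 23.2 to 35.3 at baseline (median 27.5), 40.8 to 166 at day 7 (median 55.9) and 38.6 to 69.4 at day 14 (median 41.8). Among all genes tested, 1.17% had every day 7 mouse and 0.451% had every day 14 mouse above every baseline mouse. The log2 fold change was 1.29 at day 7 (SE 0.24, adjusted p = 0.000729). At day 14 it was 0.73 (SE 0.26, adjusted p = 0.177), so the absence of overlap was not matched by a call. Mouse 15 had the highest day 7 value, and the next was 72.8.

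The HIN-200 family holds nuclear and cytosolic proteins, some of which bind DNA and feed the interferon response, and 2 of its 3 genes were called. Ifi204 had the largest log2 fold change of the 37 genes, 1.31 at day 7 (SE 0.19, adjusted p = 1.79e-05). Its normalized counts were 18.04 to 38.5 at baseline (median 26.1), 43.2 to 94.9 at day 7 (median 54.1) and 31.3 to 59.6 at day 14 (median 41.7). The day 7 and baseline mice did not overlap, and 4 of 7 day 14 mice were above every baseline mouse. At day 14 the log2 fold change of Ifi204 was 0.74 (SE 0.20, adjusted p = 0.0533), the smallest adjusted p among the 37 genes in that comparison.

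Ifi205 ranged from 7.49 to 27.8 at baseline (median 15.3), from 23.1 to 44.8 at day 7 (median 32.4) and from 14.7 to 27.2 at day 14 (median 18.99). Its log2 fold change at day 7 was 1.11 (SE 0.22, adjusted p = 0.000748), with 6 of 8 mice above every baseline mouse. Ifi203, the most abundant of the 3 in counts, ranged from 34.8 to 94.5 at baseline (median 40.9) and from 31.1 to 171 at day 7 (median 59.0), with a log2 fold change of 0.60 (SE 0.35, adjusted p = 0.240). It was not called, and its day 7 range enclosed that of baseline. Of the 75-base windows of the Ifi204 and Ifi205 transcripts, 13.2% and 16.6% also occur in another gene, mainly Ifi211, so a part of their reads could not be placed uniquely.

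Ifi27, whose product lies in mitochondrial and nuclear membranes, was the most abundant of all 39 genes and among the least variable. Its normalized counts were 377 to 585 at baseline (median 454), 726 to 967 at day 7 (median 896) and 426 to 613 at day 14 (median 552). No day 7 mouse overlapped with a baseline mouse or with a day 14 mouse, and 16 of the 12195 genes (0.131%) had every day 14 mouse below every day 7 mouse. At day 7 its log2 fold change was 0.88 (SE 0.08, adjusted p = 5.22e-08), and at day 14 it was 0.18 (SE 0.09, adjusted p = 0.378). From day 7 to day 14 Ifi27 fell by 0.70 (SE 0.09, adjusted p = 3.00e-05), and both calls of Ifi27 held in every alternative fit that was run.

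**Figure D2:**
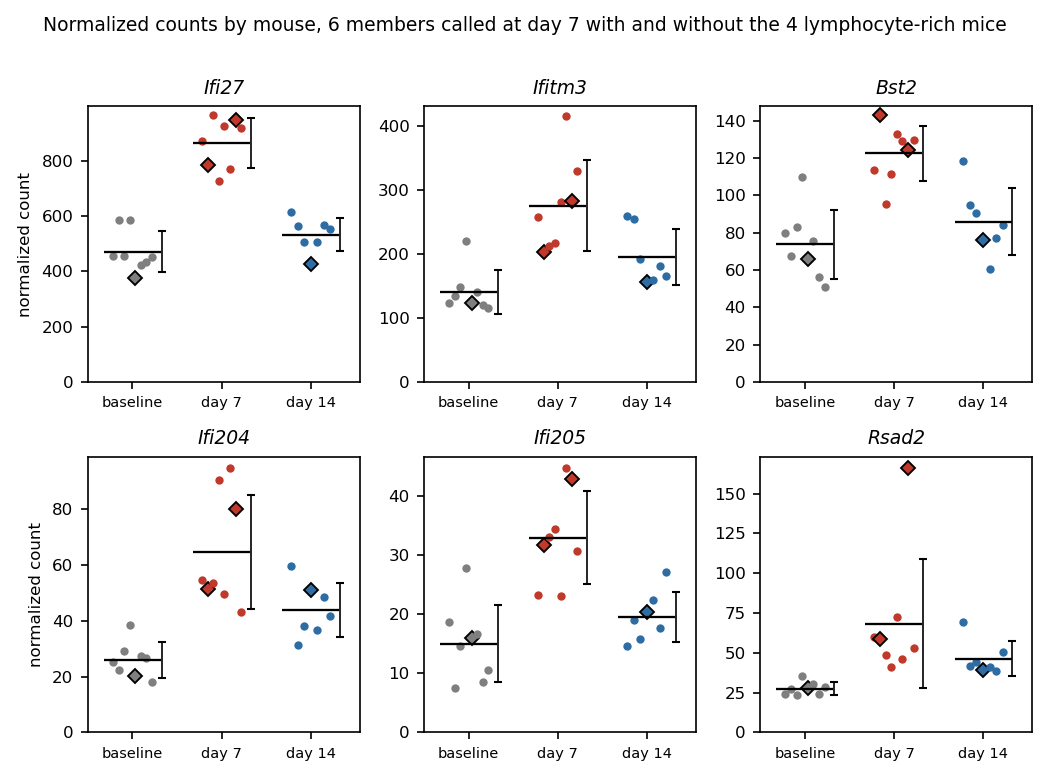
Normalized counts per mouse for Ifi27, Ifitm3, Bst2, Ifi204, Ifi205 and Rsad2 in the baseline (grey), day 7 (red) and day 14 (blue) groups, on linear axes from 0. Lines are means, bars are SDs, and diamonds mark 4 mice rich in lymphocyte transcripts. For Ifi27, Ifi204 and Rsad2 all day 7 points lie above all baseline points, and a single day 7 point of Rsad2 reaches 166.

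The IFIT proteins bind foreign RNA and stall its translation. Ifit1 ranged from 7.06 to 16.04 at baseline (median 11.4), from 7.17 to 47.6 at day 7 (median 20.5) and from 6.14 to 18.5 at day 14 (median 12.7). Its log2 fold change at day 7 was 0.94 (SE 0.30, adjusted p = 0.0290), and 5 of 8 mice were above every baseline mouse. Ifit2, the most abundant of the family in counts, ranged from 11.3 to 32.9 at baseline (median 19.1), from 14.6 to 54.8 at day 7 (median 34.1) and from 20.9 to 34.4 at day 14 (median 25.4). The log2 fold change of Ifit2 was 0.73 (SE 0.22, adjusted p = 0.0216). Both were called while their groups overlapped. Ifit3 had a log2 fold change of 0.87 (SE 0.34, adjusted p = 0.0748) and was not called, and 41.1% of its windows also occur in another gene, most often Ifit3b.

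The OAS enzymes make an oligoadenylate that activates a nuclease. Oas1a, which has few counts, ranged from 0 to 10.7 at baseline (median 5.63), from 4.48 to 21.4 at day 7 (median 10.8) and from 4.09 to 7.76 at day 14 (median 5.57). The log2 fold change at day 7 was 1.05 (SE 0.36, adjusted p = 0.0420), with 4 of 8 mice above every baseline mouse. It was called, but 47.6% of its windows also occur in another gene, most often Oas1g, so its count is uncertain. Oasl2, the most abundant of the 3 in counts, ranged from 7.56 to 46.0 at baseline (median 18.5) and from 7.79 to 46.8 at day 7 (median 32.3), and was not called (0.60, SE 0.32, adjusted p = 0.194). Oas2 was not called either (0.98, SE 0.47, adjusted p = 0.149).

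Usp18 removes Isg15 from proteins and dampens signaling at the type I receptor. Its normalized counts were 6.01 to 19.1 at baseline (median 8.28), 8.76 to 32.9 at day 7 (median 16.8) and 5.12 to 21.3 at day 14 (median 15.4). The log2 fold change at day 7 was 0.97 (SE 0.30, adjusted p = 0.0235), and 2 of 8 mice were above every baseline mouse. The untested Isg15 lay between 1.33 and 13.7 at baseline (median 6.06) and between 2.69 and 22.2 at day 7 (median 7.64).

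Ddx58 (RIG-I) and Ifih1 (MDA5) sense viral RNA in the cytosol. Ddx58 ranged from 39.1 to 77.5 at baseline (median 55.6), from 60.3 to 136 at day 7 (median 66.9) and from 55.1 to 95.6 at day 14 (median 63.6). It was called at day 7 with a log2 fold change of 0.59 (SE 0.20, adjusted p = 0.0474), while 3 of 8 mice were above every baseline mouse, and lost the call in 21 of 33 alternative fits. Ifih1 ranged from 52.0 to 121 at baseline (median 70.1), from 65.2 to 147 at day 7 (median 105) and from 63.9 to 91.7 at day 14 (median 79.9). Its log2 fold change was 0.55 (SE 0.16, adjusted p = 0.0167), past the p threshold and short of the fold threshold. Zbp1, which senses left-handed nucleic acid and triggers cell death, was at 0 counts in 3 baseline mice and had a log2 fold change of 1.05 with an SE of 0.71 (adjusted p = 0.322).

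Of the genes outside these families, Ifi35 and Rtp4 were called besides Ifi27. Ifi35, a binding partner of the related protein Nmi, ranged from 17.3 to 36.7 at baseline (median 32.5), from 19.7 to 72.2 at day 7 (median 46.2) and from 23.1 to 41.8 at day 14 (median 29.4), with a log2 fold change of 0.70 at day 7 (SE 0.22, adjusted p = 0.0254). Rtp4, a receptor transporter protein, ranged from 8.74 to 19.1 at baseline (median 11.2), from 12.6 to 38.1 at day 7 (median 21.6) and from 3.07 to 18.6 at day 14 (median 15.7), with a log2 fold change of 0.83 (SE 0.30, adjusted p = 0.0489), a call it lost in 19 of 32 alternative fits with the same direction. Both ranges overlapped between groups. Ifi44, Xaf1, Parp14 and Trim30a were not called, with log2 fold changes at day 7 between 0.36 and 0.70 and adjusted p-values between 0.214 and 0.533.

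In edgeR with TMM scaling and all mice, the transcription factors were not called at any time. Total count scaling called Irf1, Irf7, Irf9 and Stat2 at day 7, where the share over all genes was 30.1%. Irf7, which amplifies the type I response, ranged from 2.82 to 27.6 at baseline (median 11.2), from 6.81 to 59.5 at day 7 (median 26.1) and from 5.51 to 21.4 at day 14 (median 11.6). Its log2 fold change at day 7, 1.17, was among the larger ones, but so was its error (SE 0.45, adjusted p = 0.0754). Irf7 was called by DESeq2 and in 4 of the 23 fits with 1 mouse left out. Irf9, the DNA-binding part of the complex on the ISRE, ranged from 40.8 to 109 at baseline (median 60.4), from 62.8 to 123 at day 7 (median 83.4) and from 32.0 to 77.8 at day 14 (median 60.6). Its log2 fold change was 0.55 (SE 0.21, adjusted p = 0.0738), and it was called in 4 of those 23 fits.

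Irf1, the factor that interferon gamma induces, ranged from 49.4 to 162 at baseline (median 64.3), from 63.3 to 216 at day 7 (median 112) and from 51.8 to 116 at day 14 (median 74.7). At day 7 the log2 fold change of Irf1 was 0.50 (SE 0.30, adjusted p = 0.253). Stat2 ranged from 60.1 to 122 at baseline (median 80.6), from 76.9 to 117 at day 7 (median 87.0) and from 59.5 to 91.9 at day 14 (median 74.7). It had the smallest value of the 37 genes, 0.14 (SE 0.13, adjusted p = 0.496), and was the only one tested with no day 7 mouse above every baseline mouse.

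The interferon-inducible GTPases, of which the guanylate-binding proteins and immunity-related GTPases attack the vacuoles of intracellular microbes, showed positive values with wide errors. None of the 10 tested was called by edgeR with TMM scaling and all mice. Total count scaling called all of them but Gbp5 and Mx1 at day 7, where the share over all genes was 30.1%. That scaling without the 20 most abundant genes called Irgm1 (5.16%). The 4 guanylate-binding proteins had log2 fold changes at day 7 between 0.33 and 0.93, with a smallest adjusted p of 0.131. Gbp7, the most abundant of them in counts, ranged from 24.1 to 101 at baseline (median 40.9), from 33.6 to 166 at day 7 (median 77.4) and from 37.04 to 109.6 at day 14 (median 55.3). The 5 immunity-related GTPases had values between 0.61 and 1.01, with a smallest adjusted p of 0.07003 for Irgm1, which DESeq2 called.

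Iigp1, the most abundant of that family in counts, ranged from 27.1 to 125 at baseline (median 34.4), from 33.1 to 226 at day 7 (median 70.7) and from 31.3 to 149 at day 14 (median 46.9). Mx1, of the Mx family of dynamin-like GTPases, ranged from 0 to 29.7 at baseline (median 3.45), from 2.69 to 55.1 at day 7 (median 6.06) and from 0 to 25.1 at day 14 (median 5.82). The SE of its log2 fold change at day 7 was 0.82, the largest of the 37 genes, at a value of 1.05. Mx2, a polymorphic pseudogene in the annotation, was not tested and lay between 1.41 and 7.56 at baseline and between 2.92 and 12.5 at day 7. The loci of Igtp and Irgm2 overlap on the same strand, so reads between them are uncertain. Of the windows of Igtp, 7.80% also occur in another gene, most often Irgm2.

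**Figure D3:**
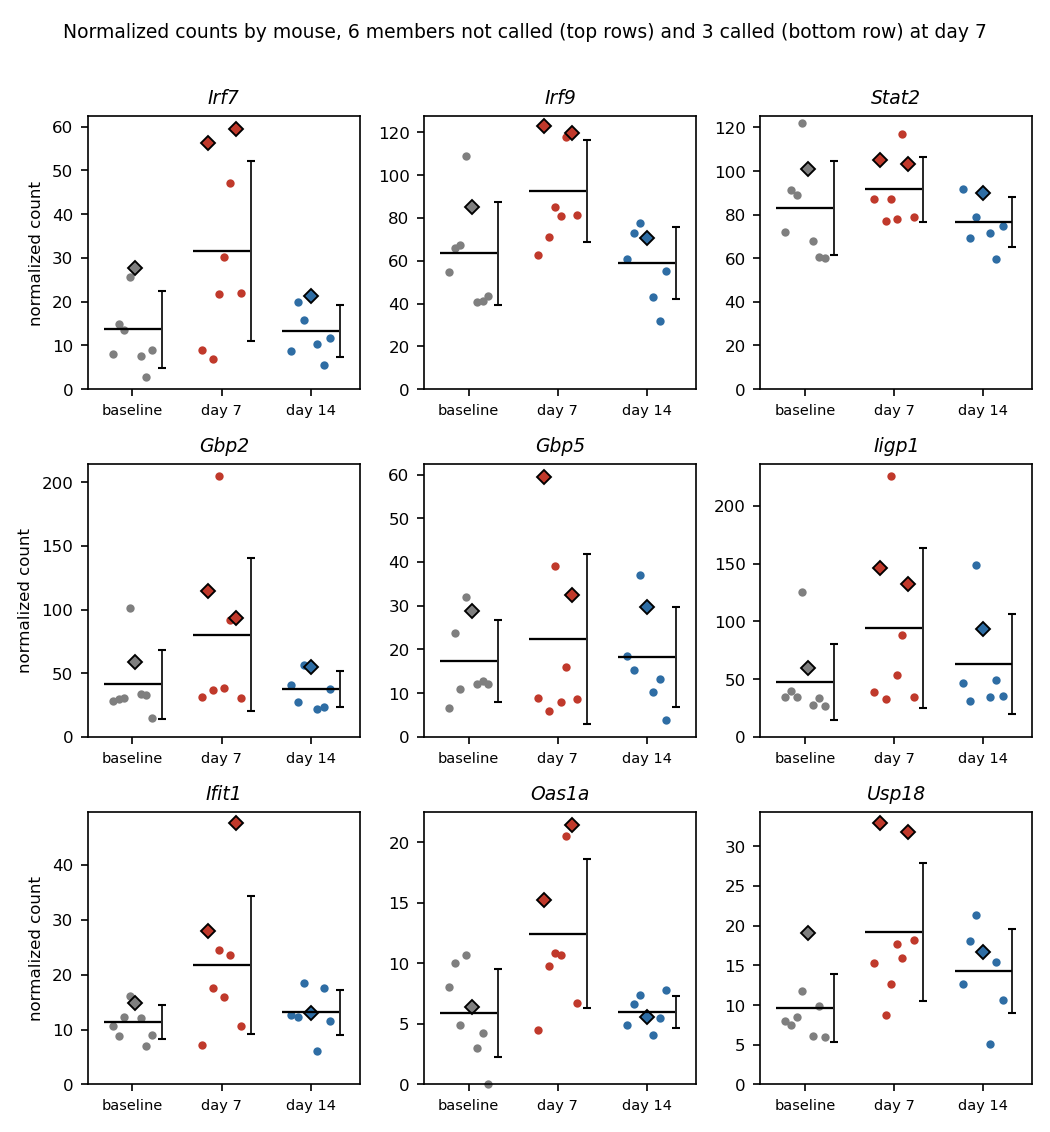
Normalized counts per mouse for Irf7, Irf9, Stat2, Gbp2, Gbp5 and Iigp1, which were not called at day 7, and for Ifit1, Oas1a and Usp18, which were, drawn as in the plot of the 6 called genes. The groups overlap in all 9 panels, and in Gbp2 and Iigp1 6 and 5 of the 8 day 7 points lie within the baseline range.

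The genes that were called varied less between mice than those that were not. The median coefficient of variation among baseline mice was 25.0% for the 13 called genes and 56.4% for the 24 others, and among day 7 mice 37.5% and 58.7%. The spread enters the test itself, so this is a description only.

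Single mice were high or low for many of the genes at once. Mouse 4 or mouse 5 had the highest baseline value for 36 of the 39 genes. At day 7 mouse 10 or mouse 15 was highest for 28 genes, and mouse 11 was lowest for 20. Mouse 12 was highest for 5 genes, all GTPases (Gbp2, Gbp3, Igtp, Iigp1 and Irgm2). At day 14 mouse 19 or mouse 21 was highest for 27 genes. The mean log2 CPM over the 39 genes lay between 1.07 and 2.43 at baseline, between 1.59 and 3.03 at day 7 and between 1.29 and 2.23 at day 14, so the groups overlapped in this mean.

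**Figure D4:**
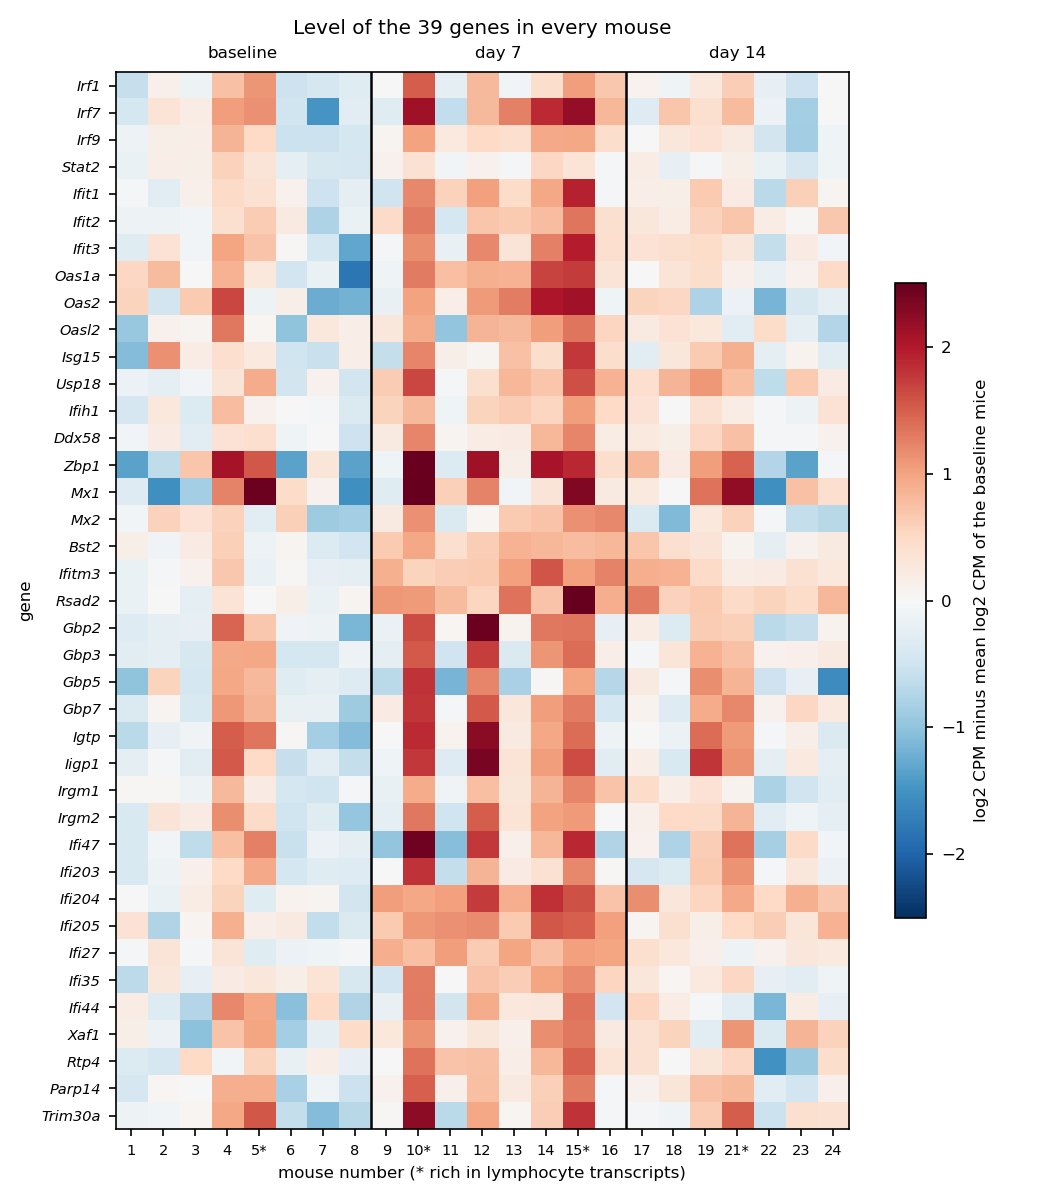
Level of the 39 genes (rows) in each of the 23 mice (columns, by group), as log2 CPM minus the mean of the 8 baseline mice, with the color scale ending at 2.5 in both directions. Columns 4 and 5 at baseline and 10, 12, 14 and 15 at day 7 are red over most rows, while the rows of Ifi27, Bst2, Ifitm3 and Rsad2 are red in every day 7 column.

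Transcripts of lymphocytes were high in some of the mice that were high for the interferon-stimulated genes, and no association was computed. Summed normalized counts of 9 T cell and B cell markers were 534 in mouse 5, 932 in mouse 10, 524 in mouse 15 and 569 in mouse 21, and between 1.504 and 157 in the 19 other mice. In these 4 mice Ccr7, a chemokine receptor of lymphocytes and migrating dendritic cells, was between 54.0 and 112, while the next highest mouse had 13.9. Of the remaining mice the sum was 125 in mouse 4, 109 in mouse 12 and 157 in mouse 19. All 5 T cell markers and all 3 NK cell markers measured were too low to be tested, and each was at 0 in at least 1 baseline mouse. Of 4 B cell markers 0 were called at any time. Mouse 4 also had a neutrophil marker sum of 119.8, while the other mice had at most 33.7.

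Without these 4 mice 34 of the genes could be tested, 33 of them had a positive log2 fold change at day 7, and the median was 0.57. Then 6 genes were called higher and 0 lower, where the shares over all genes were 3.42% and 1.22%. They were Ifi204 (1.24, SE 0.21, adjusted p = 0.000232), Ifi205 (1.02, SE 0.25, adjusted p = 0.00495), Ifitm3 (0.97, SE 0.20, adjusted p = 0.00350), Rsad2 (0.93, SE 0.17, adjusted p = 0.000327), Ifi27 (0.82, SE 0.08, adjusted p = 4.54e-08) and Bst2 (0.66, SE 0.14, adjusted p = 0.00234). The value was lower than with all mice in 32 of the 34 genes. Of the mice left out, mouse 10 or mouse 15 had the highest day 7 value for 28 of the 39 genes. Mouse 5 had the highest baseline value for 13. These mice were chosen after seeing the data, and why the values were lower was not tested. A part of lymphocytes in these values was not tested. Usp18 was at 0.81 (adjusted p = 0.0560) and Ifit1 0.60 (adjusted p = 0.172), Ddx58 was at 0.34 (adjusted p = 0.114), and Gbp5 was at -0.09. At day 14, 1 gene was called without these mice, Rsad2 at 0.77 (adjusted p = 0.0113), where the share over all genes was 0.878%.

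**Figure D5:**
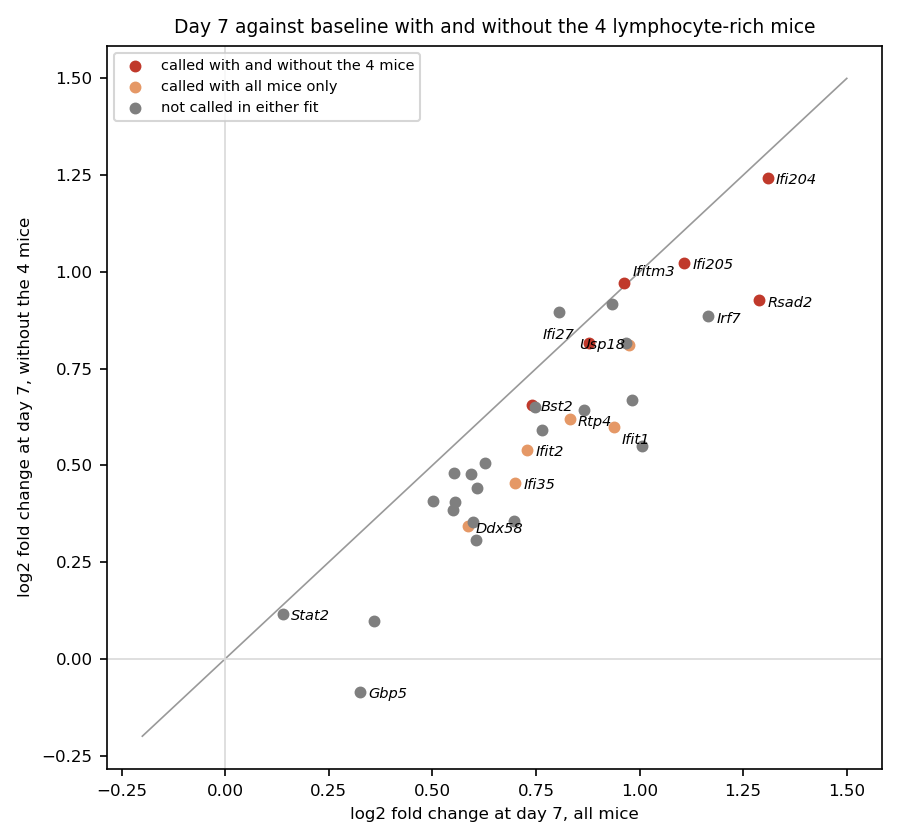
Log2 fold change at day 7 with all mice (horizontal axis) against the value without the 4 mice rich in lymphocyte transcripts (vertical axis) for 34 genes. The grey line is equality, and 32 points lie below it. The 6 genes called in both fits are red, and Gbp5 is the single point under 0.

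Markers of some other cell types also changed with the time points in the fit with all mice. Of 10 macrophage markers all were positive at day 7 and 7 were called higher, with values between 0.19 and 1.12. Their summed normalized count lay between 489 and 1846 at baseline, between 1173 and 2674 at day 7 and between 819.6 and 1578 at day 14, and was highest in mouse 5, mouse 10 and mouse 21 of their groups. No macrophage marker was at 0 in any mouse. All 6 fibroblast markers were called higher at day 7 (0.70 to 1.41), and 5 of 8 acinar markers were called lower. Of 5 endothelial markers, 4 were negative at day 7 and 0 were called. The 1 dendritic cell marker tested was called lower (-0.60). How far these changes take part in those of the interferon-stimulated genes was not tested. In bulk tissue, a change in the number of cells of a type and a change in the RNA per cell cannot be told apart.

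Upstream of the genes, a list of 40 ligands, receptors, kinases, sensors and regulators was examined. Of 10 interferons on it, Ifng and Ifnk were in the files, and neither was tested. Ifng had counts in 1 baseline mouse, in 2 day 7 mice and in 0 day 14 mice. Of the 27 genes tested 1 was called higher at day 7, near the share of 3.82% over all genes. It was Ifngr1, a chain of the interferon gamma receptor. Its counts ranged from 69.2 to 149 at baseline (median 80.3) and from 99.5 to 201 at day 7 (median 129.6), with a log2 fold change of 0.62 (SE 0.18, adjusted p = 0.0188), and 3 of 8 mice were above every baseline mouse. The feedback inhibitor Socs3 (0.58, adjusted p = 0.0209) and the adaptor Mavs (-0.28, adjusted p = 0.0314) were past the p threshold alone.

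The most abundant genes of each role in counts had small values at day 7. The kinase Jak1 was at 0.07 (SE 0.07), the receptor chain Il10rb at -0.12 (SE 0.06), the kinase Tbk1 at -0.0046 (SE 0.08), the factor Irf3 at 0.10 (SE 0.06) and the editing enzyme Adar at 0.25 (SE 0.16), with adjusted p-values between 0.184 and 0.980. The median over the 27 genes was 0.24, and at day 14, 0 of them were called.

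A further list of 35 interferon-stimulated genes, of which 24 were tested, gave values in the same direction. It was drawn up with earlier results known and measured in the same mice, so it is not independent of the first list. All 24 were positive at day 7 (median 0.44), where 53.7% of all genes tested were positive. Of the 24, 3 were called higher, where the share over all genes was 3.82%. They were Lgals3bp, a secreted scavenger receptor family protein (0.82, SE 0.19, adjusted p = 0.00388), Ddx60, a helicase (0.85, SE 0.23, adjusted p = 0.0113), and Parp12, a mono-ADP-ribosyltransferase (0.62, SE 0.13, adjusted p = 0.00116). Lgals3bp lay between 37.6 and 112 at baseline, between 88.6 and 159 at day 7 and between 53.7 and 89.3 at day 14, and was called lower from day 7 to day 14 (-0.82, adjusted p = 0.0295). Trim25, the most abundant in counts, was not called (0.14, SE 0.06, adjusted p = 0.134). Ifitm2, a neighbor of Ifitm3, was past the p threshold alone (0.45, SE 0.09, adjusted p = 0.000896).

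Males and females were compared over all time points and in their response. With the time point as a covariate, 0 of the 37 genes were called between the sexes by edgeR, where the shares over all genes were 0.0902% higher and 0.139% lower in males. The smallest adjusted p was 0.546, for Bst2, and 1 gene had an unadjusted p under 0.05, as did 1097 of all 12195 genes tested. DESeq2 also called 0. In the interaction of sex with time, where all 39 genes were tested, 0 had an adjusted p of at most 0.05 at day 7 or day 14, and the shares over all genes were 0.00773% and 0%. At day 7, 5 genes (Ifi27, Oas2, Oas1a, Ifitm3 and Bst2) had an unadjusted p under 0.05, and at day 14, 0 did. The share of all genes under that unadjusted threshold is not given for the interaction, so these counts are a description only. For Ifitm3 the difference between males and females in the day 7 log2 fold change was 0.90 (SE 0.21, adjusted p = 0.193). Its counts at day 7 were 281 to 415 in the 4 males and 203 to 257 in the 4 females, against 116 to 141 and 123 to 220.3 at baseline.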

How the data were processed

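RNA from the head of the pancreas was depleted of ribosomal RNA, made into stranded libraries and sequenced as paired 75-base reads. The authors trimmed the reads (Trim Galore, cutadapt), aligned them to mm10 with STAR 2.5.2a and assigned uniquely mapped fragments to genes with featureCounts, and the deposited files hold these counts per gene symbol, 1 file per mouse. The annotation release and the strand setting of the counting are not given in the sources used here. Mouse 20 was not analysed here.

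The genes and lists were chosen with earlier results of these data known. Counts were tested with edgeR 4.0.16 (R 4.3.3): filterByExpr, TMM scaling, glmQLFit with robust estimation and glmQLFTest on 23 mice (12195 genes, sex as covariate), or with 6 groups of sex and time for the interaction (12933 genes). Standard errors were obtained from the F statistic and so restate the test. Each mouse is 1 replicate. Values in every group are given for genes called in any comparison, the 4 transcription factors and the most abundant gene of each role. Log2 CPM has a prior count of 2. The floor of 3 counts is 3.14e-05% to 4.25e-05% of a library and covers counting error only. Gene positions and lengths are from GENCODE vM21 and promoter windows from RefSeq (GRCm38.p6). Transcript windows of 75 bases were searched in all other genes. The fits were tested on simulated data. Alternatives were DESeq2 1.42.0, its size factors in edgeR, total count scaling with and without the 20 most abundant genes, other count filters, no fold change threshold, no covariate, the mapping rate from the study's list of libraries as a covariate, only the mice compared, and leaving out each mouse. Leaving out the 4 mice with at least 50 normalized counts of Ccr7 was added after seeing the data.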

Additional observations from a re-analysis of the deposited data

Results flagged for a closer look

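Among 69 combinations of a named gene and a group, 4 held a mouse farther from the others than Dixon's critical value for the group size, and chance alone flags about 1 in 20 groups. Mouse 15 at day 7 had 166 normalized counts of Rsad2, where the next mouse had 72.8. Mouse 4 at baseline had 220.3 normalized counts of Ifitm3, where the next had 148. Mouse 11 at day 7 was low in 2 genes, with 7.79 normalized counts of Oasl2, where the next lowest mouse had 21.5, and 65.2 of Ifih1, where the next lowest had 101. Leaving out mouse 15, mouse 4 or mouse 11 did not end the calls of Rsad2 or Ifitm3 at day 7, which held in all 23 fits with 1 mouse left out.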

How the results depend on the processing

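The number of genes called higher at day 7 (13, share over all genes 3.82%) was 33 with total count scaling (30.1%), 7 with at least 10 counts in every mouse (2.43%, 19 of the genes tested), 2 with the mapping rate as a covariate (0.533%), and 6 without the 4 mice rich in lymphocyte transcripts (3.42%). The number was 6 to 18 with 1 mouse left out, where the shares over all genes were 3.07% to 5.34%. At day 14 (0, 0.697%) it was 3 with total count scaling (3.61%), 2 with only the mice compared (0.872%), 1 with DESeq2 (Ifi204, 0.497%), 1 without the 4 mice (0.878%), and 0 to 2 with 1 mouse left out (0.465% to 0.775%). From day 7 to day 14 the number called lower (1, and 21 of all genes) was 18 with total count scaling (459 of all genes), 2 with that scaling without the 20 most abundant genes (31), 2 with only the mice compared (24), 2 with no fold change threshold (34), and 1 to 3 with 1 mouse left out (numbers over all genes not given). In the edgeR fit 3 of the 37 genes had an unadjusted p under 0.05 at day 14, as did 1619 of all 12195 genes tested. With the mapping rate as a covariate, 3 of the 13 called day 7 values were negative. That rate was higher at day 7 than in most baseline mice. Negative values of genes that were not called are not counted here. The 3 values were those of Ifit2 (-0.19), Usp18 (-0.11) and Rtp4 (-0.13), and the cause was not tested. Of 447 repeats of the 14 called values, 371 kept their call, 73 lost it in the same direction and 3 were these. No paired analysis was possible because the mouse numbers are not shared between groups. Total count scaling moved the median of all genes by 0.45 at day 7, 0.21 at day 14 and -0.24 between them. How far depth limits the genes with few counts was not tested.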
